A study of Homo sapiens with 9 samples.

Results

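CCN1, CCN2, ANKRD1, AMOTL2, TAGLN, ACTA2, CNN1, TPM1, TPM2 and MYL9 are 10 genes widely used as transcript readouts of the coactivator YAP and of serum response factor (SRF). They were taken by symbol from a table of 22411 genes measured on arrays, and each of the 10 had exactly 1 row under its symbol. CCN1 and CCN2 (formerly CYR61 and CTGF), ANKRD1 and AMOTL2 are listed here as the YAP group of 4 genes. The other 6 are listed as the contractile, SRF group. The grouping is by convention, and whether a difference came through YAP or SRF was not tested. The arrays compare MCF-10A cells, an established human breast epithelial line that does not form tumours, in a Tet-on system in which doxycycline switched on an empty vector, ERK2 Y261A or ERK2 D319N. All groups carried the inducible system and received doxycycline, were kept in medium with 5% horse serum and EGF at 20 ng/ml, and were collected after 7 days, with 3 arrays a group and 9 arrays in all. ERK2 is the MAP kinase that MEK activates downstream of RAS and RAF. The D319N change lies in the common docking domain, which holds partners with a D motif, and Y261A lies in the pocket for the DEF motif. The endogenous ERK2 gene stays in these cells, no wild-type ERK2 group was analysed here, and the labels do not say whether a group is 1 clone or whether its replicates were separate cultures. P-values therefore rest on the spread among these arrays, which may be technical only.

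YAP and its relative TAZ (the WWTR1 product) enter the nucleus when the Hippo kinases are inactive, for example in spread cells on a stiff matrix, and bind DNA through the TEAD factors. SRF binds the CArG box with MRTF coactivators, which are released when actin polymerises, or with ternary complex factors such as ELK1, which ERK phosphorylates. In breast epithelium several contractile genes of the SRF group mark the myoepithelial cells that surround the ducts, and both gene groups are often followed when epithelial cells take on mesenchymal traits.

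Values are log2 signals after the authors' RMA normalization, and errors of a group are SDs over 3 arrays. Replicate arrays correlated at 0.9946 to 0.9986. D319N replicate 2 and Y261A replicate 3 deviated from their group means in a related way over all genes (r = 0.604), and where leaving out this pair changed a call of the 10 genes, the value without it is given. The background probe sets had a mean of 4.85. Of the 10 genes, 9 lay above this on all 9 arrays, and ANKRD1 lay below it on all 9. A value above this mean does not by itself show expression. The skeletal muscle factor genes MYOD1 and MYOG had means of 6.64 and 6.12 in vector cells and also lay above it on all 9 arrays. TAGLN (6.71 in vector) and CNN1 (6.16) lay near these values. TPM1 (7.03) and ACTA2 (7.21) lay near the endothelial marker gene CLDN5, which had a mean of 7.02 in vector cells. Levels alone therefore do not establish expression of these members. KRT5, a basal keratin, had a mean of 12.78 in vector cells, and CDH1, or E-cadherin, 8.99. KRT5 and CDH1 thus lay well above the muscle factor genes. KRT14, another basal keratin, had a mean of 6.97 in vector cells, near MYOD1. KRT17, TP63 and LAMB3 had no row of their own symbol.

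The clearest difference was that of the secreted matricellular genes. CCN1, a ligand of integrins, measured 7.44, 7.44 and 7.41 on vector arrays, 7.60, 7.60 and 7.45 on Y261A arrays, and 8.39, 8.19 and 8.36 on D319N arrays. All D319N arrays stood above all others, and the Y261A arrays lay just above the vector arrays without overlap. CCN1 rose 1.85-fold in D319N cells against vector (log2 0.89 ± 0.06 SE, 95% interval 0.74 to 1.03, limma adjusted p = 0.00013). It was also 1.69-fold higher in D319N than in Y261A cells (0.76 ± 0.06, adjusted p = 0.000382). Between Y261A and vector the difference of 0.13 ± 0.06 did not pass (interval -0.02 to 0.27, adjusted p = 0.546). That last difference passed without D319N replicate 2 and Y261A replicate 3 (0.18, adjusted p = 0.0365) and with array weights (0.17, adjusted p = 0.0250). The order of levels was thus D319N, Y261A and vector, with the last neighbours not separated by the test on all arrays.

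CCN2, which modulates growth factors and integrins in the matrix, measured 8.02, 7.98 and 8.17 in vector, 8.20, 8.12 and 8.05 in Y261A, and 8.65, 8.35 and 8.79 in D319N. The D319N arrays again stood above all others, with replicate 2 nearest to them, while vector and Y261A arrays overlapped. CCN2 rose 1.45-fold in D319N against vector (0.54 ± 0.11, interval 0.28 to 0.80, adjusted p = 0.0156) and was 1.39-fold higher than in Y261A cells (0.47 ± 0.11, interval 0.21 to 0.74, adjusted p = 0.0298). Y261A differed from vector by 0.06 ± 0.11 (interval -0.20 to 0.33, adjusted p = 0.834). The call against vector was lost without vector replicate 1 (adjusted p = 0.0597), vector replicate 2 (0.0644) or D319N replicate 1 (0.0615), and with only the 2 groups in the fit (0.0568). The call against Y261A held in 2 of 9 fits without 1 array, those without vector replicate 3 or D319N replicate 2. In the other 7 the adjusted p ran from 0.051 (without vector replicate 2) to 0.105 (without D319N replicate 1), and with only the 2 groups it was 0.0901.

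**Figure D1:**
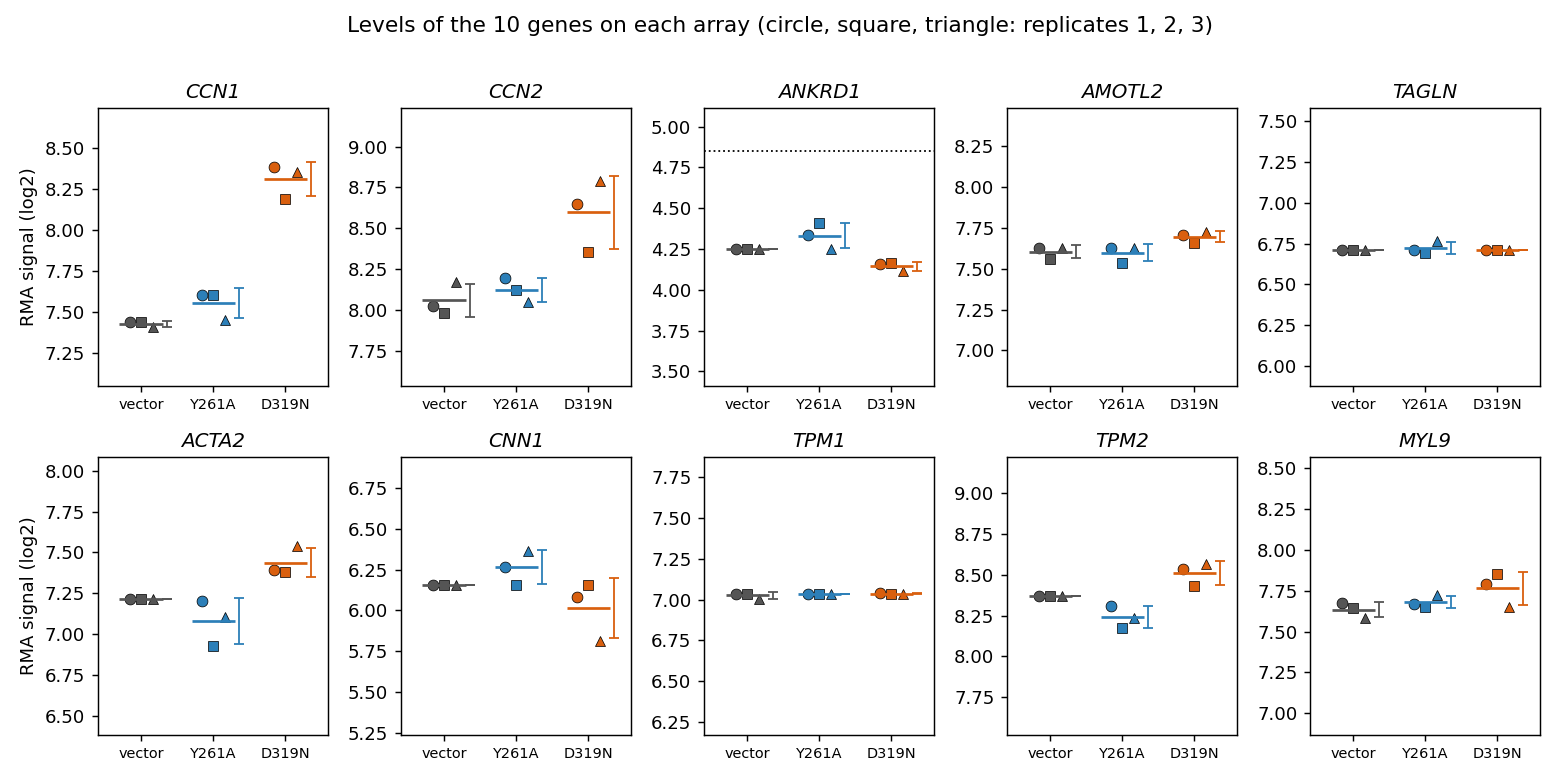
RMA signal (log2, vertical axes, each spanning the same range) of the 10 genes on each of the 9 arrays, by group. Points are arrays, horizontal lines group means, bars to their right SDs over 3 arrays, and the dotted line in the ANKRD1 panel is the mean of the background probe sets, 4.85. CCN1 and CCN2 stand apart on the D319N arrays, ACTA2 and TPM2 lie highest there and lowest on Y261A arrays, and TAGLN and TPM1 are level.

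The CCN2 and ANKRD1 promoters are shown because they hold repeated copies of the TEAD motif, and the ACTA2 promoter because it carries the CArG-like elements of the contractile group. The stretches run 5′ to 3′ on the gene's strand over the 250 bases before the start in RefSeq (GRCh38.p14). Capitals mark GGAATG on either strand, the AP-1 motif TGANTCA and the CArG box (CC and GG around 6 bases that are A or T), here also with 1 central base free.
CCN2, chr6:131951373-131951622, minus strand: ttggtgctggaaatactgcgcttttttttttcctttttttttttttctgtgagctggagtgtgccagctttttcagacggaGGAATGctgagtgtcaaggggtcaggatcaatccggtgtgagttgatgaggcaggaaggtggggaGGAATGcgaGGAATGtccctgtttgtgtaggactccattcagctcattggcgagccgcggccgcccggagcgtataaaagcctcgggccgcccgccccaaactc
ANKRD1, chr10:90921088-90921337, minus strand: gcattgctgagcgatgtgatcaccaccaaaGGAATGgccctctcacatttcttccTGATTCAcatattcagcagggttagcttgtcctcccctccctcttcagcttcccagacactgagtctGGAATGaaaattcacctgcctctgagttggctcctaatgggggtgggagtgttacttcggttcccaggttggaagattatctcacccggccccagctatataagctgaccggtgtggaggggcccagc
ACTA2, second listed start, chr10:88952774-88953023, minus strand: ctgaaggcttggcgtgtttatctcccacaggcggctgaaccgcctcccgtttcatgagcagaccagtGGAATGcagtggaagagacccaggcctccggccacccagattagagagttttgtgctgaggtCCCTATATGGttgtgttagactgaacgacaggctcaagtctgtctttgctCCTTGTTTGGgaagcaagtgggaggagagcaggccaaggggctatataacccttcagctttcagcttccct

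Of the 10 genes, 7 were matched to 10 promoter entries (AMOTL2, ACTA2 and TPM2 have 2 listed starts each). CCN1, TAGLN and MYL9 had none. CCN2 holds 3 copies of GGAATG, with first bases at -169, -104 and -95 from the start, and ANKRD1 holds 2, at -220 and -128, with TGATTCA at -195. ACTA2 holds 1 copy at -183 and AMOTL2 holds 1 copy on the other strand at -69, each at its second listed start. GGAATG was present in 11.9% of all 35116 promoter stretches of this length, and TGANTCA in 6.57%. None of the 7 genes held a strict CArG box, which 1.16% of all stretches held. ACTA2 held 2 copies with 1 central base free, CCCTATATGG at -121 and CCTTGTTTGG at -71, against 7.04% of all stretches with at least 1. A match describes letters only, and elements outside these windows were not searched.

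ANKRD1, a nuclear ankyrin repeat protein of stressed muscle and a standard YAP target, measured 4.25 on all 3 vector arrays, 4.33, 4.41 and 4.25 in Y261A, and 4.16, 4.16 and 4.11 in D319N. The D319N arrays were the lowest, but every value lay below the background mean, so no level of this gene is established here. The fit gave D319N below Y261A (-0.19 ± 0.04, adjusted p = 0.0185) and no call against vector for D319N (-0.11 ± 0.04, adjusted p = 0.115) or Y261A (0.08 ± 0.04, adjusted p = 0.546). The first call was lost without Y261A replicate 1 (adjusted p = 0.0505), D319N replicate 1 (0.0552) or D319N replicate 3 (0.0656). It was also lost with the arrays centred (0.138), quantile-normalized (0.0856) or with only the 2 groups (0.0775). The same held with small spreads of all genes raised to that of genes without ties (0.191). The comparison with vector passed without Y261A replicate 2 (0.0458) or 3 (0.0308), and without D319N replicate 2 and Y261A replicate 3 together (-0.12, adjusted p = 0.0303). It also passed with only the 2 groups (0.0197) and with array weights (0.00716).

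AMOTL2, an angiomotin relative that binds YAP at cell junctions and is itself a YAP target, measured 7.63, 7.56 and 7.63 in vector, 7.63, 7.54 and 7.63 in Y261A, and 7.71, 7.66 and 7.73 in D319N. The D319N arrays were above all others by a small margin, while the other groups overlapped. None of its differences passed, with 0.09 ± 0.04 for D319N against vector (interval 0.01 to 0.18, adjusted p = 0.129) and 0.10 ± 0.04 for D319N against Y261A (interval 0.02 to 0.18, adjusted p = 0.107). Y261A differed from vector by -0.01 ± 0.04 (interval -0.09 to 0.08, adjusted p = 0.975). Both comparisons of D319N passed with array weights (adjusted p = 0.0160 and 0.0242) and with the replicate number as a block.

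**Figure D2:**
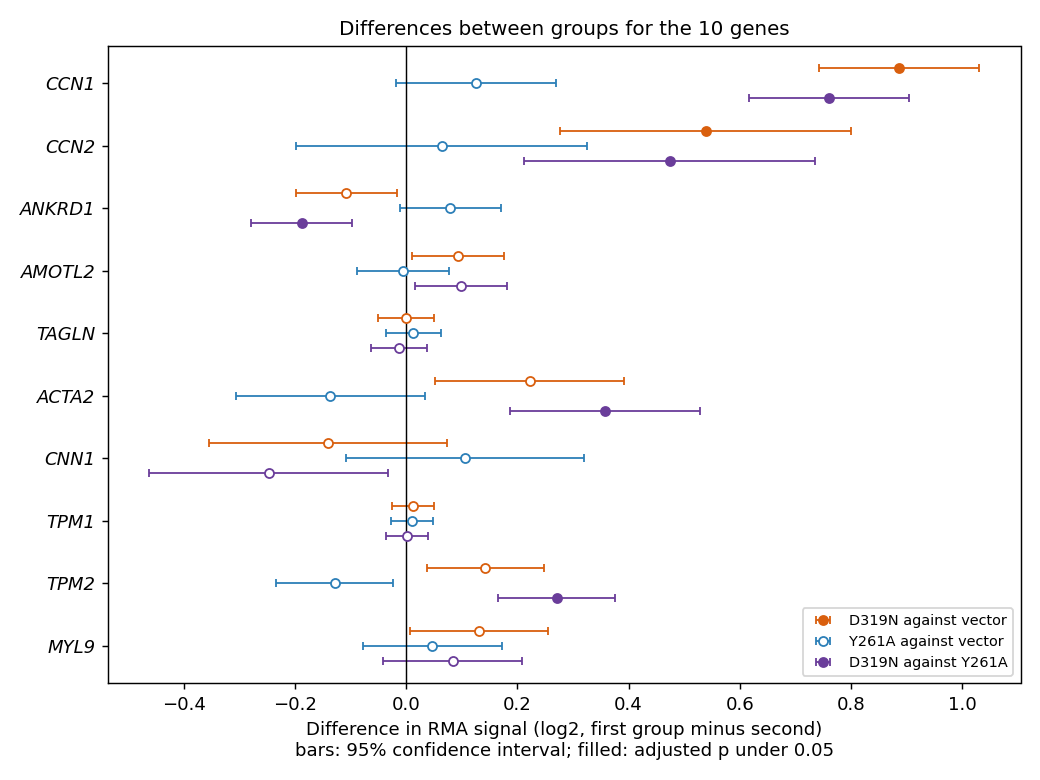
Differences between groups in RMA signal (log2, first group minus second, horizontal axis) for the 10 genes (vertical axis). Points are limma estimates, bars 95% intervals, and filled points have an adjusted p under 0.05. The filled points are CCN1 and CCN2 in both comparisons of D319N, and ACTA2, TPM2 and ANKRD1 between the mutants.

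Among the contractile genes, the mutants differed in ACTA2 and TPM2, with vector in between. ACTA2, smooth muscle alpha-actin, measured 7.21 on each vector array, 7.20, 6.93 and 7.10 in Y261A, and 7.39, 7.38 and 7.54 in D319N. The 3 groups did not overlap on any array, in the order D319N, vector, Y261A. These levels do not by themselves establish expression of ACTA2, as stated above. ACTA2 was 1.28-fold higher in D319N than in Y261A cells (0.36 ± 0.07, interval 0.19 to 0.53, adjusted p = 0.0172). Neither mutant passed against vector, D319N at 0.22 ± 0.07 (interval 0.05 to 0.39, adjusted p = 0.0864) and Y261A at -0.14 ± 0.07 (interval -0.31 to 0.03, adjusted p = 0.595). The call between the mutants was lost without D319N replicate 3 (adjusted p = 0.0557) and with only the 2 groups (0.0763), and D319N against vector passed without Y261A replicate 2 (adjusted p = 0.0315), the lowest ACTA2 array, with only the 2 groups (0.0413) and with array weights (0.0395).

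TPM2, beta-tropomyosin, which lies along actin filaments and regulates myosin access, measured 8.37 on all 3 vector arrays, 8.31, 8.17 and 8.24 in Y261A, and 8.54, 8.43 and 8.57 in D319N. The order and the lack of overlap were those of ACTA2. TPM2 was 1.21-fold higher in D319N than in Y261A cells (0.27 ± 0.04, interval 0.17 to 0.38, adjusted p = 0.00764), a call that held in 9 of 9 fits without 1 array. Against vector the differences were 0.14 ± 0.04 in D319N (adjusted p = 0.0766) and -0.13 ± 0.04 in Y261A (adjusted p = 0.391). D319N against vector passed without D319N replicate 2 (0.18, adjusted p = 0.0236), without that array and Y261A replicate 3 (0.18, adjusted p = 0.0258) and with array weights (0.17, adjusted p = 0.00465). For both genes the vector values were tied or almost tied, which makes the vector SD too small. The separation from vector should be read with that limit. The fit pools the spread over all groups, so the limit also holds for the calls between the mutants.

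The other 4 contractile genes were not called in any comparison. Of all 6, 3 had an unadjusted p under 0.05 in D319N against vector, where limma called none. The share of all genes with such a p was not computed for this comparison. After adjustment 16.6% of all genes were called there, so the count of 3 does not set these genes apart. TAGLN, or transgelin, an actin-bundling protein of smooth muscle, had the value 6.71 on 7 of 9 arrays and ran from 6.69 to 6.76 on the remaining Y261A arrays. Its D319N and vector values were identical, with a difference of 0.00 ± 0.02 (interval -0.05 to 0.05). TPM1, alpha-tropomyosin, was likewise identical on 7 of 9 arrays at 7.04, with 7.00 on vector replicate 3 and 7.04 on D319N replicate 1. Its differences were 0.01 ± 0.02 in D319N and 0.01 ± 0.02 in Y261A against vector. Ties of this kind give an SD of 0 that understates the error of measurement, and the intervals of both genes are narrow for that reason. With the spread of each gene raised to at least that of genes without ties, the SE of both genes became 0.10.

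MYL9, the regulatory light chain of smooth muscle and nonmuscle myosin, measured 7.67, 7.65 and 7.58 in vector, 7.67, 7.65 and 7.72 in Y261A, and 7.79, 7.85 and 7.65 in D319N. D319N replicate 3 fell among the arrays of the other groups, and no group was set apart. The difference of D319N from vector was 0.13 ± 0.05 (interval 0.01 to 0.26, adjusted p = 0.155) and passed without that array (0.19, adjusted p = 0.0249) with the arrays centred (0.17, adjusted p = 0.0398) or with array weights (0.14, adjusted p = 0.00587). Y261A differed from vector by 0.05 ± 0.05 (adjusted p = 0.757), and D319N from Y261A by 0.08 ± 0.05 (adjusted p = 0.284, and 0.0145 with array weights). CNN1, calponin, an actin-binding inhibitor of myosin, measured 6.16 on each vector array, 6.27, 6.16 and 6.37 in Y261A, and 6.08, 6.16 and 5.81 in D319N. Its D319N arrays were at or below the others, opposite to CCN1, with -0.14 ± 0.09 against vector (interval -0.36 to 0.07, adjusted p = 0.350) and -0.25 ± 0.09 against Y261A (interval -0.46 to -0.03, adjusted p = 0.116, and 0.0227 with array weights).

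Counted over the 10 genes, 2 rose and none fell in D319N against vector, where 16.6% of all 22411 genes were called, 8.93% higher and 7.66% lower. The share of members called was close to that background, and in size CCN1 and CCN2 stood out within the group. The members' median difference was 0.11 and that of all genes -0.03. Groups did not overlap for 5 members higher and 1 lower, against 32.0% of all genes, 15.1% higher and 16.9% lower. In Y261A against vector none of the 10 was called by limma and 1, TPM2, had an unadjusted p under 0.05. Among all genes 0.353% were called and 10.4% had such a p. Groups did not overlap for 1 member higher and 2 lower there, against 13.4% of all genes, 4.11% higher and 9.24% lower. In D319N against Y261A 4 members were called higher and 1 lower, where 14.6% of all genes were called (9.92% higher, 4.72% lower). Groups did not overlap for 5 members higher and 1 lower, against 28.1% of all genes, 15.5% higher and 12.6% lower. No member was called with a difference of 2-fold or more, as 0.870% of all genes were in D319N against vector, 0.00892% in Y261A against vector and 0.656% between the mutants. Without D319N replicate 2 and Y261A replicate 3 these counts of members called became 4, 1 and 5. The counts over all genes, given in the last section, were also larger without this pair in each comparison, so the shares above do not apply to that setting. The comparisons share arrays, so they are not independent of each other.

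Relatives of the 10 genes show how far the differences extended within a family. Among 6 CCN genes only CCN1 and CCN2 were called. CCN3, CCN4, CCN5 and CCN6 lay between -0.05 and 0.00 in D319N against vector and between 0.00 and 0.05 in Y261A, and CCN6 was below the background mean on every array. The muscle ankyrin repeat gene ANKRD2, a relative of ANKRD1 well above background, fell in both mutants. It measured 7.55, 7.64 and 7.62 in vector, 7.23, 7.23 and 7.30 in Y261A, and 6.78, 6.72 and 6.80 in D319N, with no overlap between any groups. ANKRD2 fell by 0.84 ± 0.035 in D319N (adjusted p = 1.43e-05) and by 0.36 ± 0.035 in Y261A (adjusted p = 0.0147), and D319N was below Y261A by -0.48 ± 0.035 (adjusted p = 0.000252). The third relative, ANKRD23, was not called (-0.10 ± 0.06 in D319N, adjusted p = 0.304).

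TPM4, a tropomyosin of nonmuscle cells, measured 9.20, 9.21 and 9.13 in vector, 9.25, 9.11 and 9.18 in Y261A, and 9.58, 9.51 and 9.65 in D319N. It rose in D319N by 0.40 ± 0.05 (adjusted p = 0.00127), where the largest estimate against vector in the contractile group was the 0.22 of ACTA2. TAGLN2, the transgelin of nonmuscle cells, rose by 0.24 ± 0.06 in D319N (adjusted p = 0.0362). CNN3, a calponin of nonmuscle cells, was not called against vector (0.10 ± 0.06, adjusted p = 0.336) and was higher in D319N than in Y261A (0.27 ± 0.06, adjusted p = 0.0252). CNN2 (-0.15 ± 0.06, adjusted p = 0.138) was not called. Of the 6 actin genes ACTA2 alone was called in a comparison. The cytoplasmic actins ACTB (-0.06 ± 0.03, adjusted p = 0.315) and ACTG1 (0.08 ± 0.07, adjusted p = 0.489) and the muscle actins ACTA1 (-0.15 ± 0.06, adjusted p = 0.128) and ACTC1 (-0.09 ± 0.06, adjusted p = 0.384) were not called in D319N. None of 9 myosin light chain genes was called by limma in any comparison. An unadjusted p under 0.05 was reached by 3 of them in D319N against vector, by 0 in Y261A against vector and by 6 between the mutants. The share of all genes with such a p was not computed for the comparisons of D319N. After adjustment 16.6% of all genes were called there against vector and 14.6% against Y261A. Between the mutants the light chain genes went in both directions, as with MYL12A (0.25) and MYL7 (-0.22). The largest differences of D319N from vector were those of MYL6 (0.20 ± 0.07, adjusted p = 0.0894) and MYL12A (0.18 ± 0.07, adjusted p = 0.147). AMOTL1 was not called (0.17 ± 0.07, adjusted p = 0.154). Actin, tropomyosin and light chain genes are close in sequence, and hybridization of 1 member's transcript to another's probes was not tested.

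**Figure D3:**
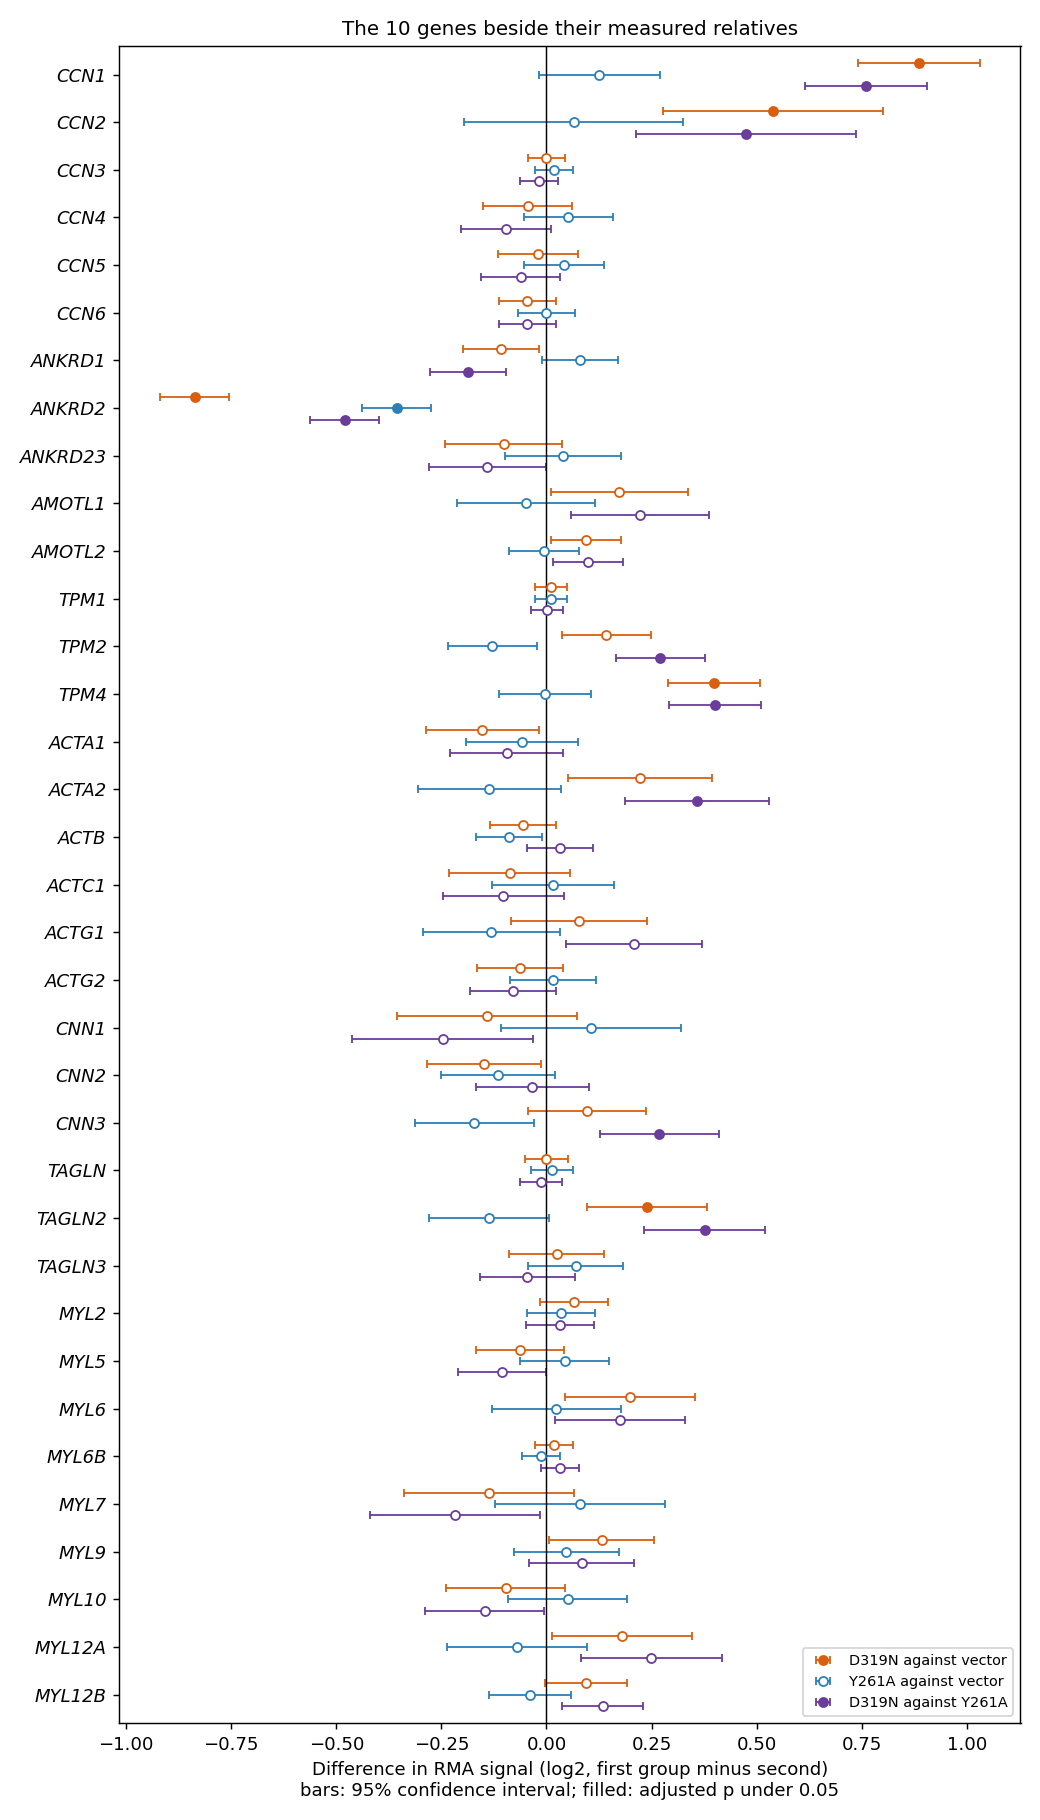
Differences between groups in RMA signal (log2, horizontal axis) for the 10 genes and their 25 measured relatives (vertical axis). Points are limma estimates, bars 95% intervals, and filled points have an adjusted p under 0.05. ANKRD2 lies below 0 in all comparisons, and TPM4 and TAGLN2 are filled in both comparisons of D319N where TPM1 and TAGLN are not.

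Other reported YAP targets moved in both directions. In D319N against vector 8.93% of all genes were called higher and 7.66% lower, and in Y261A against vector 0.353% were called. The list counts below are to be read beside these shares. Of 26 other YAP targets measured, 13 rose and 4 fell in D319N against vector, with a median of 0.22. The rises with the smallest p were those of NT5E, the surface nucleotidase CD73 (1.87 ± 0.03, adjusted p = 3.69e-07), CCDC80, a matrix protein (2.42 ± 0.08, adjusted p = 6.45e-06), the stress protein gene GADD45A (0.95 ± 0.05, adjusted p = 2.64e-05) and the ligand TGFB2 (1.06 ± 0.06, adjusted p = 3.79e-05). The falls, named after their values were seen, were FJX1 (-0.45), AJUBA (-0.41), NUAK2 (-0.31) and BIRC5 (-0.30). In Y261A only NT5E was called by limma (0.60, adjusted p = 0.00125), and CCDC80 was not (0.45, adjusted p = 0.122). An unadjusted p under 0.05 was reached by 8 of the 26 in Y261A, against 10.4% of all genes. They went in both directions, as with THBS1 (0.29) and NUAK2 (-0.12). Over the alternatives 1 to 5 were called higher in Y261A and 0 to 1 lower. Between the mutants 13 were higher in D319N and 5 lower, against 9.92% and 4.72% of all genes. Several of these genes also answer to other pathways, TGFB2 and GADD45A among them.

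The transcripts of YAP and TAZ themselves were not called. YAP1 measured 8.39 ± 0.02 in vector, 8.28 ± 0.09 in Y261A and 8.43 ± 0.08 in D319N (SD, n = 3), and WWTR1 7.04 ± 0.01, 6.98 ± 0.08 and 7.06 ± 0.02. D319N differed from vector by 0.04 ± 0.06 for YAP1 (interval -0.09 to 0.17) and by 0.01 ± 0.04 for WWTR1 (-0.08 to 0.10). Among the TEAD factors TEAD4 fell by 0.30 ± 0.05 in D319N (adjusted p = 0.00432) and TEAD2 rose by 0.10 ± 0.02 (adjusted p = 0.0243). TEAD1 (0.02 ± 0.06) and TEAD3 (0.05 ± 0.03) were not called. Of 23 Hippo genes and TEAD cofactors, 6 rose and 2 fell in D319N (median 0.04), led by the upstream regulator FRMD6 (1.39 ± 0.08, adjusted p = 4.72e-05), the kinase MAP4K4 (0.97 ± 0.07, adjusted p = 0.000117) and a fall of the scaffold WWC1, or KIBRA (-0.44 ± 0.05, adjusted p = 0.00105). The kinase LATS2, itself a YAP target and counted in both lists, rose by 0.31 ± 0.07 (adjusted p = 0.0214). None of the 23 was called in Y261A by limma, and 5 had an unadjusted p under 0.05. The count of 6 was 11 without D319N replicate 2 and Y261A replicate 3 and ran from 2 to 12 over all alternatives.

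The other cytoskeletal targets of SRF and MRTF that passed the test on the 9 arrays were higher in D319N cells. Of 29 measured, 13 rose and none fell against vector, with a median of 0.15 against 0.07 for the 6 members. The smallest p were those of TGFB1I1, or HIC-5, a focal adhesion adaptor (1.08 ± 0.08, adjusted p = 0.000134), the integrin subunit ITGB1 (0.65 ± 0.05, adjusted p = 0.000232), FERMT2, or kindlin-2, an integrin activator (0.80 ± 0.06, adjusted p = 0.000232), and the actin-associated PDLIM7 (0.48 ± 0.04, adjusted p = 0.000408). In Y261A none of the 29 was called by limma and 3 had an unadjusted p under 0.05, and the median was -0.05. Between the mutants 15 were higher in D319N and none lower. A difference between the 29 genes and the 6 members was not tested. Over the alternatives the count of 13 ran from 9 to 17, and it was 17 without the pair of deviating arrays. The count of falls against vector ran from 0 to 5, with 1 under quantile normalization and 5 under array weights, and between the mutants from 0 to 2.

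SRF itself measured 7.85 ± 0.02 in vector, 7.84 ± 0.04 in Y261A and 7.77 ± 0.06 in D319N and was not called (-0.09 ± 0.03 in D319N, interval -0.17 to -0.01, adjusted p = 0.150). The coactivators MRTFA (-0.04 ± 0.04) and MRTFB (0.05 ± 0.06) were not called either, and MYOCD, the muscle coactivator, lay about the background mean at 4.83 in vector. Of 11 SRF factors and cofactors, 2 rose and 1 fell in D319N. Over the alternatives 2 to 3 rose and 0 to 5 fell, with 3 and 2 without the pair of deviating arrays and the 5 falls under array weights. ELK3, a ternary complex factor, rose by 1.18 ± 0.07 (adjusted p = 5.51e-05), FHL2, a LIM cofactor of SRF, by 0.42 ± 0.05 (adjusted p = 0.00215), and SCAI, an inhibitor of MRTF, fell by 0.14 ± 0.03 (adjusted p = 0.0325). Of 11 SRF targets of the ternary complex type, 6 rose in D319N and none fell (median 0.22), with EGR1 at 1.77 and JUNB at 1.35. FOS (0.00), EGR3 (0.00), FOSB (0.04) and NR4A1 (-0.06) were among those not called in D319N. Over the alternatives 5 to 7 of the 11 rose and 0 to 1 fell. None of them was called in Y261A by limma, where 2 had an unadjusted p under 0.05. Of 20 genes listed as regulators of myosin light chain phosphorylation, 5 rose and 1 fell in D319N (median 0.07). The list is wider than its name. It also holds the light chains MYL6, MYL12A and MYL12B, and LIMK1 and LIMK2, whose kinases act on cofilin. The GTPase gene RHOB rose by 0.66 ± 0.10 (adjusted p = 0.00364), RHOC by 0.24 ± 0.06 (adjusted p = 0.0295) and the kinase gene ROCK1 by 0.40 ± 0.10 (adjusted p = 0.0384). The kinase gene LIMK2 fell by 0.37 ± 0.07 (adjusted p = 0.0119). MYLK, the myosin light chain kinase, had 1 value, 5.45, on 8 of 9 arrays. The count of 5 ran from 1 to 9 over all alternatives and was 7 without the pair of deviating arrays.

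**Figure D4:**
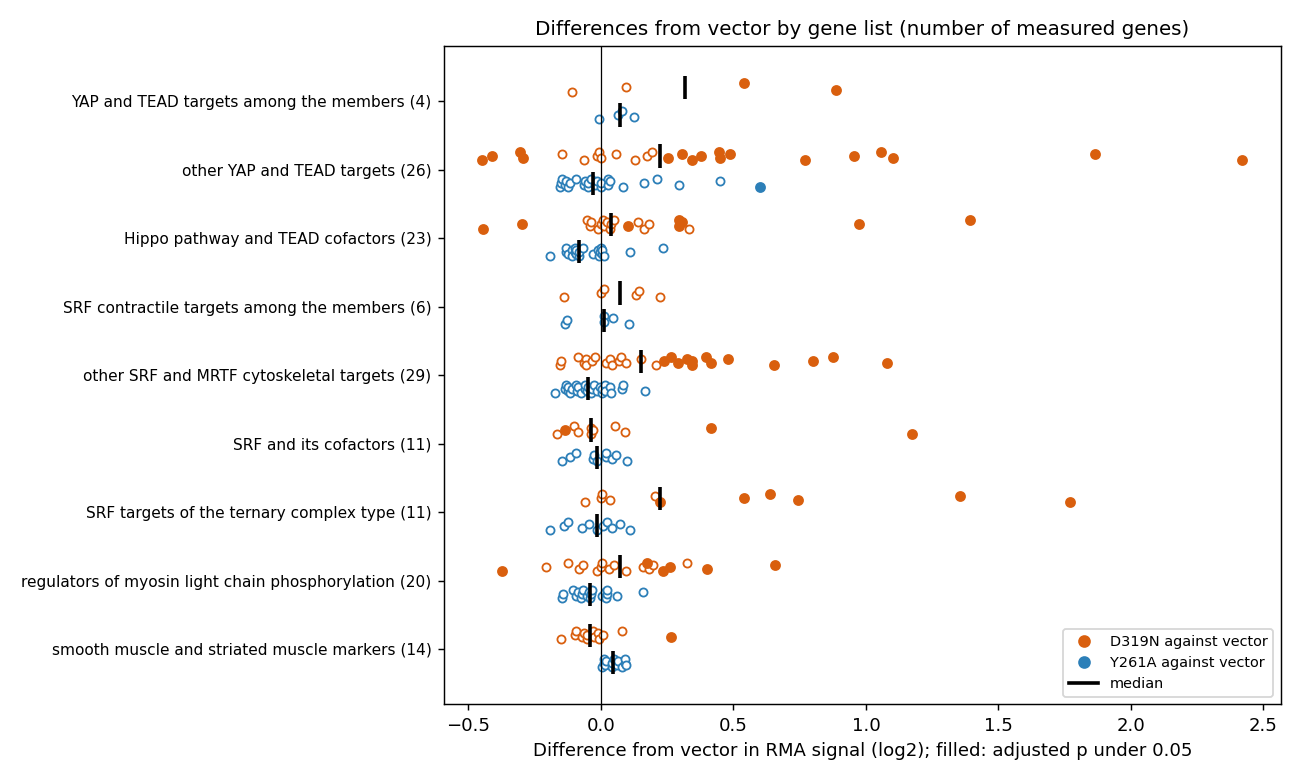
Differences from vector in RMA signal (log2, horizontal axis) for single genes, by list (vertical axis, number of measured genes in parentheses), D319N above and Y261A below in each row. Points are genes, filled where the adjusted p is under 0.05, and black bars are list medians. In D319N, 13 of 26 other YAP targets and 13 of 29 other SRF targets are filled above 0, while none of the 6 contractile members is, and 1 filled point, NT5E, appears in Y261A.

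Markers of muscle, of fibroblasts and pericytes, of endothelium and of breast epithelium gave the following values. Of 14 smooth and striated muscle markers, 1 rose in D319N, SMTN or smoothelin (0.26 ± 0.03, adjusted p = 0.00207), and none fell. This count is close to the share of all genes called higher, 8.93%. The summed signal of the list ran from 9.53 to 9.55 in vector, 9.52 to 9.73 in Y261A and 9.52 to 9.59 in D319N (log2). SYNPO2, CASQ2, PLN and ACTN2 were below the background mean on all 9 arrays, and MYOCD and ACTG2 on 8 of 9. MYH11, the smooth muscle myosin heavy chain, was level at 6.11, 6.17 and 6.06. Of 13 fibroblast and pericyte markers, COL6A3 (1.93), FAP (1.67) and PDPN (0.97) rose in D319N and none fell, and FAP also rose in Y261A (0.47, adjusted p = 0.025). The summed signal was 9.81 to 9.83 in vector, 9.93 to 9.98 in Y261A and 10.48 to 10.51 in D319N, with no overlap. PDGFRA, LUM, RGS5 and DPT were below the background mean on all arrays, and COL1A1 was 6.76 in each group. Of 8 endothelial markers none was called by limma in any comparison (1, 0 and 1 with an unadjusted p under 0.05), with summed signals of 8.77 to 8.84, 8.77 to 8.95 and 8.64 to 8.84. Of 9 breast epithelial markers 5 fell in D319N, KRT5, KRT18, KRT8, CDH1 and EPCAM, and none rose. None of the 9 was called by limma in Y261A, where 8 had an unadjusted p under 0.05. Of those 8, KRT14 (0.34), ITGA6 (0.22) and ITGB4 (0.19) were higher than in vector, and the 5 that fell in D319N were lower. The summed signal of this list was 13.65 to 13.72 in vector, 13.41 to 13.57 in Y261A and 12.86 to 13.04 in D319N. The part of such shifts in the values of CCN1, CCN2 and the contractile genes was not tested, and in bulk RNA fewer cells of a type and less RNA per cell cannot be told apart.

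For the 5 members called in a comparison, the genes with the most similar profile over the 9 arrays were found among 16588 genes with a mean above background. They are given as a description, because arrays of 1 group share their condition and such values mostly follow the 3 group means. For CCN1 they were CSGALNACT2 (Pearson r = 0.9993, n = 9), DNER (0.9989) and SH3KBP1 (0.9987), which rose by 0.89, 1.45 and 0.77 in D319N against vector. For CCN2 they were MAN2B1 (0.998), ICAM1 (0.995) and RETREG2 (0.993). ACTA2 was most like CYB5R3 (0.990), MAMLD1 (0.987) and PRRG1 (0.981), and TPM2 most like RAB11B (0.990), S100A4 (0.990) and TLE5 (0.988). For ANKRD1, whose own values lie below background, they were PDK4 (0.994), DSC3 (0.948) and CABLES1 (0.944).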

How the data were processed

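The deposited table holds log2 signals of 9 arrays, which the authors normalized with RMA in Expression Console 1.4 (Affymetrix), per the submitters' processing notes. The array's genome build is not given in the sources here. No further normalization was applied. Of 70523 rows, 23781 had 1 gene symbol and 1543 several, and only the former named a gene. Symbols were updated through a RefSeq table (GRCh38.p14), which changed 306, and the row with the highest mean stood for a gene (528 genes had several rows), leaving 22411 genes. Of these, 14207 had identical values on at least 2 arrays of a group.

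Group means over the 9 arrays were fitted together with limma 3.58.1 in R 4.3.3 (6 residual and 1.23 prior degrees of freedom). P-values are two-sided and adjusted over all genes within a comparison by the Benjamini-Hochberg method, and called means an adjusted p under 0.05. Intervals are 95%. The code was tested on simulated data. Arrays have no read depth, and their number limits the precision. The 10 genes, the lists, the naming rule (all members, list genes with the smallest p, family relatives and the main factors) and the alternatives were chosen with earlier results of these data known. Alternatives left out single arrays, added the replicate number as a block, and changed scaling, filter, moderation, weights and the row rule. List genes without a row of their own symbol were not analysed here.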

Additional observations from a re-analysis of the deposited data

How the results depend on the processing

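CCN1 in both comparisons of D319N and TPM2 between the mutants kept their direction and their call in all 19 alternatives. CCN2 kept its direction in all, and its call in 15 of 19 against vector and 11 of 19 against Y261A. ACTA2 between the mutants kept its call in 17 of 19 and ANKRD1 in 11 of 18. Over members and comparisons, 510 alternative values stayed on their side of the threshold, 21 lost a call, 22 gained one and 14 changed sign, all of the last near 0 and not called. AMOTL2 in Y261A against vector ran from -0.029 to 0.0246 over the fits without 1 array, and was 0.0448 with quantile normalization and 0.0047 with array weights. TAGLN in Y261A against vector ran from -0.008 to 0.0278, and was -0.0027 with array weights and -0.008 without the pair of deviating arrays, D319N replicate 2 and Y261A replicate 3. Between the mutants it ran from -0.0278 to 0.008, and was 0.0027 with array weights, 0.008 without that pair and 0.0379 with the arrays centred. TPM1 was -0.002 in Y261A against vector with centring and -0.0206 between the mutants with quantile normalization. The cause of these changes was not tested.

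Leaving out single arrays gave 2523 to 4572 called genes for D319N against vector, where 3718 were called on all arrays, 9 to 133 for Y261A against vector (79) and 1941 to 5302 between the mutants (3281). The members called were 1 to 4, 0 in each, and 2 to 5. Array weights gave 11631, 988 and 10403 genes, with 7, 1 and 8 members. Without the pair of deviating arrays there were 7979, 157 and 6259 genes, with 4, 1 and 5 members. Using only the 2 groups compared gave 1933 genes and 2 members between the mutants. For Y261A against vector, centring gave 45 genes and quantile normalization 134. Raising small spreads of all genes to that of genes without ties gave 252. With the replicate number as a block there were 13 genes there, and 3 members against vector in D319N and 6 between the mutants. In the block fit AMOTL2 passed in both comparisons of D319N (adjusted p = 0.0354 and 0.0361). Arrays with the same number did not deviate together (r = -0.448 to 0.208 over 9 pairs). The numbers thus gave no sign of a pairing, but with 3 arrays a group these values cannot exclude one.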
